A study of Mus musculus with 8 samples.

Results

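Astrocyte identity and maturation genes are the transcripts by which astrocytes, the star-shaped glia of the brain, are recognised, together with the regulators that set up the lineage. The 41 members were given by gene symbol, and all 41 were found among the 24047 rows of the deposited counts. They were meant to leave out the main transporter, channel and receptor families, although several solute carriers and receptors are among them. All 41 had enough counts to be tested, among 10954 genes tested in all. In astrocyte development, Sox9 and the nuclear factor I proteins act early to start the glial programme, and BMP signals and Id proteins hold cells in it. Enzymes, transporters and secreted proteins that serve neurons are switched on as the cells mature after birth. Removing Ptch1, the receptor that keeps the Hedgehog transducer Smo silent, is used to turn Hedgehog signalling on.

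RNA was sequenced from tdTomato-positive cells sorted from mouse somatosensory cortex, 4 Ptch1cKO and 4 WT libraries. Ptch1cKO mice carried Glast-CreERT2, Ai14 and Ptch1fl/fl, both copies floxed, and WT mice carried Glast-CreERT2 and Ai14. All mice received tamoxifen intraperitoneally on postnatal days 12 to 14 and were 23 to 25 days old at collection. The Glast promoter drives the inducible Cre in astrocytes and in other cells that use Glast, and Ai14 marks a cell and its progeny once Cre has acted, so labelled cells need not have lost Ptch1. Library totals ranged from 4061274 to 7043378 counts in Ptch1cKO and from 4958119 to 7206462 counts in WT. Since no label ties a library to its own animal, the p-values reflect spread among these samples, and that spread may be technical. The column headers of the deposited counts carry prefixes, and no prefix occurs in both genotypes. No label explains the prefixes, and whatever they mark cannot be told apart from genotype.

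The targeted gene, Ptch1, had 168 to 258 CPM (counts scaled to TMM-adjusted library size) in Ptch1cKO libraries and 227 to 491 CPM in WT libraries. Its log2 ratio of Ptch1cKO over WT was -0.67 (SE 0.22, edgeR unadjusted p = 0.00765 and adjusted p = 0.349). Counts run over all of the gene, and transcripts that lack the floxed part still add to them. WT replicates 2 and 3 held 1148 and 612 Xist counts, and the 4 Ptch1cKO and other WT libraries at most 4, so 2 WT libraries had the female pattern and no Ptch1cKO library had it. All 25 markers on a separate list of astrocyte genes were detected and tested, with a summed level of 26690 to 54483 CPM in Ptch1cKO and 31398 to 47480 CPM in WT. Oligodendrocyte markers summed to 17477 to 23116 CPM in Ptch1cKO and 13766 to 26640 CPM in WT, and neuron markers to 12375 to 15769 CPM and 13325 to 15069 CPM, so the sorted RNA also held transcripts of these types. In these sums single genes weighed heavily. Slc1a2, of the astrocyte genes, averaged 15926 CPM in Ptch1cKO and 18620 CPM in WT. Mbp, of the oligodendrocyte markers, averaged 14757 CPM and 13613 CPM, and Camk2a, of the neuron markers, 9304 CPM and 9389 CPM. Over 8 libraries Aldoc averaged 8916 TPM, Glul 4000 TPM, Slc1a2 3794 TPM and Aqp4 52.2 TPM. Microglial markers summed to 575 to 1468 CPM in Ptch1cKO and 498 to 942 CPM in WT, and all 16 had positive fold changes. At an unadjusted p under 0.05 there were 4 of 16 microglial and 4 of 9 oligodendrocyte markers, each higher in Ptch1cKO (4.8% of all genes were), and the part of this RNA in the results was not tested. The oligodendrocyte count was 0 without Ptch1cKO replicate 4 or WT replicate 1, 1 without WT replicate 3 and 2 without WT replicate 4. The microglial count was 10 without Ptch1cKO replicate 2 and 2 without Ptch1cKO replicate 3. In these fits 6.83% to 9.54% of all genes had such a p, in either direction. Endothelial and mural markers were near 0, at 12 to 26 CPM in Ptch1cKO and 19 to 33 CPM in WT, with only 4 of 12 testable. In bulk RNA, fewer astrocytes in a library and less of a transcript per astrocyte cannot be told apart.

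Levels were first compared between members, in the authors' TPM, which scale counts for gene length. Ndrg2, an astrocyte-enriched protein of the alpha/beta-hydrolase fold, was the most abundant, with 6556 ± 1499 TPM in Ptch1cKO and 4877 ± 451 TPM in WT (SD, n = 4 each), and ranked 16 among all 23585 rows. It stood apart from Nfix at 849 ± 168 and 1105 ± 112 TPM, Scg3 at 836 ± 282 and 826 ± 165 TPM, and Ttyh1 at 660 ± 185 and 592 ± 123 TPM, each in Ptch1cKO and in WT, with n = 4. Over the 8 libraries Ndrg2 lay wholly above these 3, whose ranges overlapped one another. S100b, the calcium-binding protein used to stain astrocytes, had 385 ± 73.1 TPM in Ptch1cKO and 366 ± 41.2 TPM in WT (SD, n = 4). Aldh1l1, the formyltetrahydrofolate dehydrogenase whose promoter is widely used to drive genes in astrocytes, had 112 ± 26.3 TPM in Ptch1cKO and 115 ± 27.3 TPM in WT (SD, n = 4). F3 was among the 3 lowest members, with 6.92 ± 2.07 TPM in Ptch1cKO and 5.58 ± 2.08 TPM in WT (SD, n = 4). Btbd17, with 3.28 ± 1.65 and 4.81 ± 1.76 TPM, and Lfng, with 2.85 ± 1.11 and 2.71 ± 2.20 TPM in Ptch1cKO and in WT, were lower on average, and the ranges of these 3 overlapped. Libraries were enriched by exome capture, so a level also depends on how well a gene was captured.

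**Figure D1:**
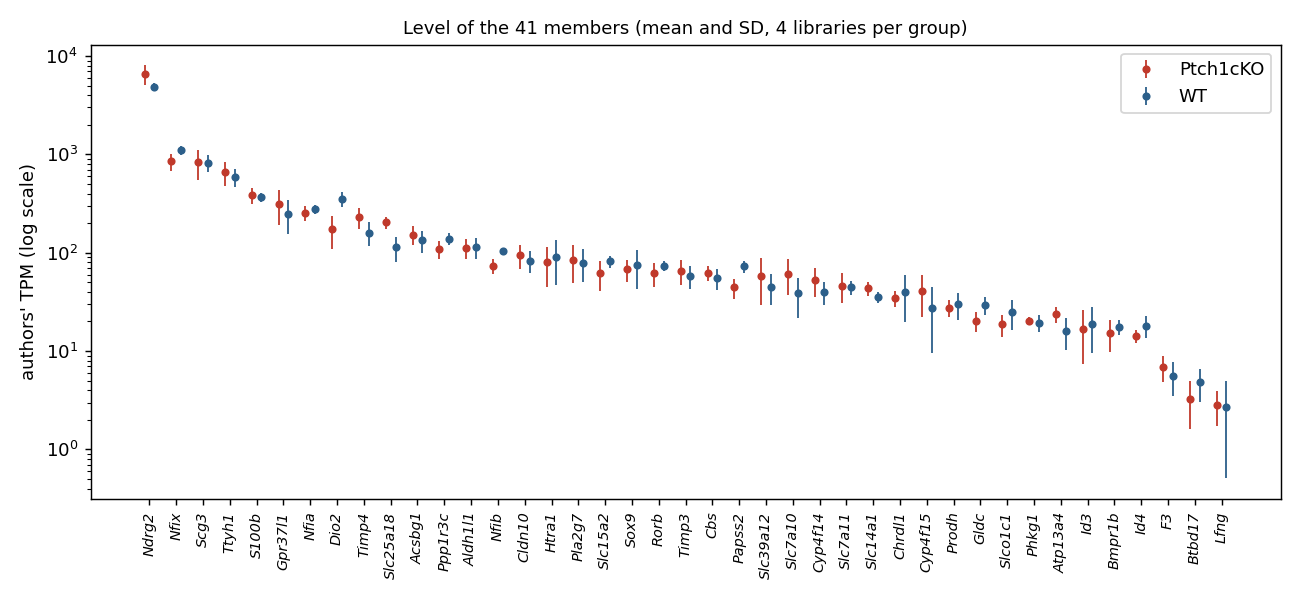
Mean level of each of the 41 members in the authors' TPM on a log axis, with bars for the SD over 4 Ptch1cKO (red) and 4 WT (blue) libraries, ordered by the mean of all 8 libraries. Ndrg2 lies above all others, Lfng, Btbd17 and F3 lie lowest, and the group means lie close together for most members, with Dio2, Slc25a18 and Papss2 among the visible gaps.

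No member passed the test over all genes. Of the 41 members tested, 0 had an adjusted p under 0.05 (edgeR quasi-likelihood test, Benjamini-Hochberg), against 11 of 10954 genes, 0.1% of those tested (0.0822% higher and 0.0183% lower in Ptch1cKO). At an unadjusted p under 0.05 there were 9 members, 22% of the 41, where the share over all genes was 9.34%. Of these, 6 were higher in Ptch1cKO (all genes 4.8%) and 3 were lower (all genes 4.54%). In limma tests of the authors' log2(TPM + 1) values the same threshold was met by 4 members higher and 5 lower in Ptch1cKO. There 9.99% of all genes met it in either direction. The split by direction thus depended on the scale, and on this scale the median of all genes was also lower, at -0.096. The groups did not overlap for 5 members, 12.2% of the 41, where 5.02% of all genes were apart. Of the 5, 2 were higher in Ptch1cKO (all genes 2.52%) and 3 lower (all genes 2.5%). These counts are in CPM. In the authors' TPM the groups were apart for 4 members, 9.76%, where 6.18% of all genes were apart. Without Ptch1cKO replicate 2, Ptch1cKO replicate 3 or WT replicate 3, the groups were apart for 9, 8 and 9 members, where the shares of all genes were 8.98%, 8.08% and 9.13%. The median log2 ratio of Ptch1cKO over WT was 0.15 over the members and -0.0019 over all genes, with 23 members positive and 18 negative, where 49.6% of all genes were positive. On the TPM scale, where the median of all genes was -0.096, the members' median was 0.0002, 0.097 above that of all genes. Leaving out single libraries gave medians of 0.05 to 0.27.

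**Figure D2:**
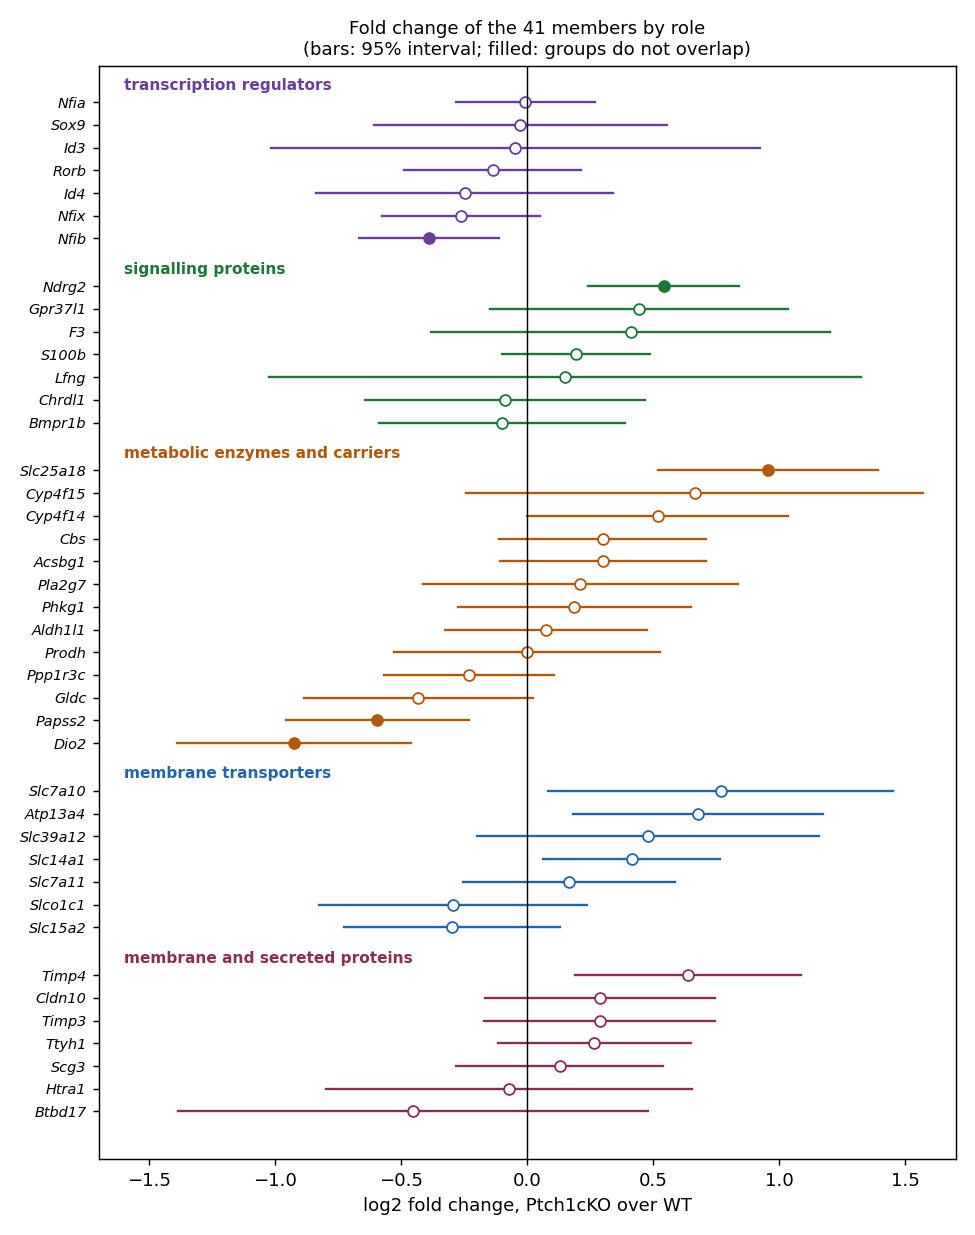
Log2 fold change of Ptch1cKO over WT for each of the 41 members, grouped by role, with 95% intervals from the edgeR fit as bars and filled points where the 4 libraries of one group lie wholly above the 4 of the other. The 7 transcription regulators lie at or below 0, Slc25a18 is the most positive at 0.95 and Dio2 the most negative at -0.93.

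The 5 members whose groups did not overlap in CPM were Slc25a18, Dio2, Ndrg2, Papss2 and Nfib. The start regions of the first 4 are shown here, because their CPM separated the 8 libraries by genotype. That of Aldh1l1, whose CPM did not, is shown with them. Each runs from 250 bases before to 50 bases after the RefSeq start on GRCm38.p6, 5′ to 3′ on the gene's strand. Where a gene had several starts, the one with the most GENCODE M21 coding transcript starts within 50 bases was taken. Ties went to the most upstream start. For Slc25a18 and Dio2 the last 50 bases shown were in no GENCODE transcript of the gene. The RefSeq start lies inside the GENCODE gene for Slc25a18 and upstream of it for Dio2, so positions in both hold for the RefSeq start only. Capitals mark matches to the motifs searched on both strands.
Slc25a18 (chr6:120773518-120773817, plus strand): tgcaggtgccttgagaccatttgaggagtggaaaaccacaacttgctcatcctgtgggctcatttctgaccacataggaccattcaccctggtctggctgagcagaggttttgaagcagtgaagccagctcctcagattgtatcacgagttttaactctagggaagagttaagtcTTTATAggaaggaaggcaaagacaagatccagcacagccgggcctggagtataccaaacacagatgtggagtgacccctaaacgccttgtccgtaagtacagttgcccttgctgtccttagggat
Dio2 (chr12:90738989-90739288, minus strand): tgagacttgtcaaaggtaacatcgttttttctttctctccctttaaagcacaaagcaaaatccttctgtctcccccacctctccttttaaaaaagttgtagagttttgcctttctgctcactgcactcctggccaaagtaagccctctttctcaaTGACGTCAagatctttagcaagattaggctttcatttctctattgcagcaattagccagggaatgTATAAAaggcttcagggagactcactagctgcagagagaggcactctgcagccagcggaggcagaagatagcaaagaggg
Ndrg2 (chr14:51913439-51913738, minus strand): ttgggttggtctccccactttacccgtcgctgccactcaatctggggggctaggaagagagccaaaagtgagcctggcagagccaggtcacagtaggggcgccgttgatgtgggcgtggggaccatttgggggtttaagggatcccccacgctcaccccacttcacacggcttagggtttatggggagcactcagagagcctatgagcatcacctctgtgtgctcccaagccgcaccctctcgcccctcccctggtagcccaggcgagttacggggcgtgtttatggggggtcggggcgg
Papss2 (chr19:32619755-32620054, plus strand): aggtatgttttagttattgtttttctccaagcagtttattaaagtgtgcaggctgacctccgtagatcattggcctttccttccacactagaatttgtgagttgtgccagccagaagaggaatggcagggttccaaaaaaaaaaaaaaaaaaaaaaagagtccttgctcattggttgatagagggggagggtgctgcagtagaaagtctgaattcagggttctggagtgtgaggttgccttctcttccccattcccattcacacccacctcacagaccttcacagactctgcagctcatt
Aldh1l1 (chr6:90550543-90550842, plus strand): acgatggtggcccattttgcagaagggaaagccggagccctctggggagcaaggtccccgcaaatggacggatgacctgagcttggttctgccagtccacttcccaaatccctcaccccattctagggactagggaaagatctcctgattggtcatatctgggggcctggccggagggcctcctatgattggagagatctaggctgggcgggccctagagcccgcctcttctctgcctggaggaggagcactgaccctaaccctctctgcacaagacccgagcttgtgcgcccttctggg
The motifs were the Gli consensus GACCACCCA, the single nuclear factor I site TTGGCA and that factor's palindrome, the TATA box TATAAA and the cAMP response element TGACGTCA. In Dio2, whose transcription is known to respond to cAMP, the letters TGACGTCA began 95 bases and TATAAA 30 bases before the start, and in Slc25a18 a reverse TATAAA began 75 bases before it. Over 32851 promoters of this length TGACGTCA occurred in 1.79% and TATAAA in 13.6%. Of the 37 members with an entry used, 1 (2.7%) held TGACGTCA and 6 (16.2%) held TATAAA. The Gli consensus GACCACCCA was in 0 of the 37 and in 0.253% of all promoters. TTGGCA occurred in 4 of the 37, 10.8%, and in 14.1% of all promoters. These promoters held a median of 7 CpG, as did all promoters, with a range from 1 in Papss2 and Slco1c1 to 39 in Id4. Nfib, Sox9, Chrdl1 and Slc14a1 had no entry.

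Among the transcription regulators, Nfib was lower in Ptch1cKO and the groups of the other 6 overlapped. Nfia, Nfib and Nfix are nuclear factor I proteins that bind DNA as dimers and turn on glial genes. Nfib had 263, 315, 223 and 277 CPM in Ptch1cKO replicates 1 to 4, and 391, 317, 360 and 345 CPM in WT replicates 1 to 4. All 4 Ptch1cKO libraries lay below the 4 WT libraries, with the nearest pair almost touching. The means were 270 ± 38.1 CPM in Ptch1cKO and 353 ± 30.7 CPM in WT (SD, n = 4), a log2 ratio of -0.39 (SE 0.13, unadjusted p = 0.00919; edgeR adjusted p = 0.373). Nfib lies on mouse chromosome 4 of mm10 at 82290173 to 82705750, minus strand. Its relative Nfix had 2775, 1684, 2412 and 2242 CPM in Ptch1cKO, and 2920, 2649, 3063 and 2309 CPM in WT. The lowest library was Ptch1cKO replicate 2, and the groups overlapped, with a log2 ratio of -0.26 (SE 0.15). Nfix had an unadjusted p under 0.05 in 5 of 17 alternative fits, among them the limma fits of TPM. Nfia varied least of all members, with 966, 1148, 812 and 940 CPM in Ptch1cKO and 1059, 833, 958 and 1037 CPM in WT. Its groups overlapped, and its 95% interval ran from -0.28 to 0.27 on the log2 scale.

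Sox9, an early factor of gliogenesis, had 118, 69.8, 117 and 134 CPM in Ptch1cKO and 126, 80.8, 174 and 67.1 CPM in WT. The groups overlapped fully, and the log2 ratio of -0.03 (95% interval -0.61 to 0.55) spans differences in both directions. The nuclear receptor Rorb had 230 ± 59.4 CPM in Ptch1cKO and 253 ± 32.4 CPM in WT (SD, n = 4). The inhibitors of basic helix-loop-helix factors were low, at 9.06 ± 1.47 CPM in Ptch1cKO and 10.7 ± 2.87 CPM in WT for Id4, and 5.93 ± 3.22 CPM and 6.09 ± 3.03 CPM for Id3 (SD, n = 4). All 7 regulators had negative fold changes, with a median of -0.14, but Nfia, Sox9 and Id3 turned sign when single libraries were left out, and with each of the 8 libraries left out in turn 1 or 2 of the 7 were positive. Their median was -0.057 without Ptch1cKO replicate 3, -0.059 without WT replicate 3, -0.21 without Ptch1cKO replicate 4 and -0.34 without WT replicate 4. Of 17 tested regulators on a separate list (Sox2, Zeb2 and others), 7 were positive and 10 negative, and 0 passed. The smallest p on that list was for Hes1, a Notch target, at 3.62 ± 1.69 CPM in Ptch1cKO and 1.42 ± 0.403 CPM in WT (SD, n = 4), unadjusted p = 0.011 and edgeR adjusted p = 0.386. Nfic, the remaining nuclear factor I gene, had a log2 ratio of 0.02 (SE 0.18).

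Among the signalling proteins, Ndrg2 was higher in Ptch1cKO and the others overlapped. Ndrg2 had 4395, 6995, 4906 and 5459 CPM in Ptch1cKO, and 3774, 3410, 3670 and 4095 CPM in WT. Ptch1cKO replicate 2 was the highest library and all 4 WT libraries lay close together below the lowest mutant. The means were 5439 ± 1125 CPM in Ptch1cKO and 3737 ± 283 CPM in WT (SD, n = 4), a 1.46-fold difference with a log2 ratio of 0.54 (SE 0.14, unadjusted p = 0.00151; edgeR adjusted p = 0.237). The gene lies on chromosome 14 at 51905271 to 51914158, minus strand. S100b had 209, 304, 230 and 231 CPM in Ptch1cKO and 199, 201, 214 and 240 CPM in WT. Only Ptch1cKO replicate 2 lay above the WT range, and the log2 ratio was 0.19 (95% interval -0.10 to 0.49).

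Gpr37l1, a G protein-coupled receptor of astrocytes, had 272 ± 100 CPM in Ptch1cKO and 200 ± 76.3 CPM in WT (SD, n = 4), with a log2 ratio of 0.44 (SE 0.27). That ratio was 0.19 without Ptch1cKO replicate 4 and 0.74 without WT replicate 3. The BMP receptor subunit Bmpr1b had 34.8 ± 11.4 CPM in Ptch1cKO and 37.5 ± 6.18 CPM in WT, and the secreted BMP antagonist Chrdl1 had 92.0 ± 14.5 CPM and 97.7 ± 49.3 CPM (SD, n = 4). The wide spread of Chrdl1 in WT came from replicate 3, at 171 CPM, without which the log2 ratio was 0.33. Of 12 tested BMP ligands, receptors and Smads outside the members, 7 were positive and 5 negative, and 0 passed. Bmp7, a BMP ligand, had the smallest p and averaged 22.3 CPM in Ptch1cKO and 9.60 CPM in WT, a log2 ratio of 1.20 (SE 0.36), unadjusted p = 0.00494 and edgeR adjusted p = 0.327. F3, tissue factor, had 4.69, 6.26, 3.20 and 5.62 CPM in Ptch1cKO and 2.36, 5.03, 4.75 and 2.68 CPM in WT. Lfng, a glycosyltransferase that modifies Notch receptors, had 2.84, 1.56, 1.97 and 3.64 CPM in Ptch1cKO and 2.69, 0.786, 4.61 and 0.823 CPM in WT. Both overlapped, and at these levels their 95% intervals, -0.38 to 1.20 for F3 and -1.03 to 1.32 for Lfng on the log2 scale, do not bound a 2-fold rise.

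The metabolic members held the most positive and the most negative fold change of the set. Slc25a18, a mitochondrial glutamate carrier, had 89.9, 105, 104 and 121 CPM in Ptch1cKO, and 63.3, 31.6, 66.7 and 55.2 CPM in WT. The lowest mutant library stood well above the highest WT library, and WT replicate 2 was the lowest of all. The means were 105 ± 12.9 CPM in Ptch1cKO and 54.2 ± 15.8 CPM in WT (SD, n = 4), a 1.94-fold difference with a log2 ratio of 0.95 (SE 0.21, unadjusted p = 0.000289; edgeR adjusted p = 0.113). DESeq2 called it (Benjamini-Hochberg adjusted p = 0.00500), and over the alternatives its adjusted p ranged from 5.59e-05 without the count filter to 0.465. Without WT replicate 2 the log2 ratio was 0.77. The gene lies on chromosome 6 at 120773578 to 120794336, plus strand, and an exon overlaps the opposite-strand gene Atp6v1e1. Atp6v1e1 itself had a log2 ratio of 0.06 (SE 0.14), and no source used here says if strand was used in counting.

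Dio2, the deiodinase that turns thyroxine into the active thyroid hormone inside astrocytes, had 452, 562, 307 and 259 CPM in Ptch1cKO, and 891, 845, 585 and 685 CPM in WT. Every mutant library lay below every WT library, though Ptch1cKO replicate 2 came close to WT replicate 3. The means were 395 ± 138 CPM in Ptch1cKO and 752 ± 142 CPM in WT (SD, n = 4), with WT 1.90-fold above Ptch1cKO and a log2 ratio of -0.93 (SE 0.22, unadjusted p = 0.000754; edgeR adjusted p = 0.173). DESeq2 called Dio2 (Benjamini-Hochberg adjusted p = 0.0128), and edgeR called it without Ptch1cKO replicate 2, at a log2 ratio of -1.14 (adjusted p = 0.0435). The adjusted p of Dio2 ranged from 1.97e-07 without the count filter to 0.418 over the alternatives tried. The gene lies on chromosome 12 at 90724552 to 90738438, minus strand, and an exon overlaps the opposite-strand gene Gm26512, not analysed here. Slco1c1, the carrier that brings thyroxine into the brain, had 23.1 ± 5.09 CPM in Ptch1cKO and 28.4 ± 9.68 CPM in WT (SD, n = 4), a log2 ratio of -0.29 (SE 0.25).

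Papss2, which makes the active sulfate donor used to sulfate proteoglycans and other molecules, had 75.7, 68.8, 46.2 and 71.2 CPM in Ptch1cKO, and 83.9, 101, 101 and 111 CPM in WT. The 4 mutant libraries lay below the 4 WT libraries. The means were 65.5 ± 13.1 CPM in Ptch1cKO and 99.3 ± 11.2 CPM in WT (SD, n = 4), with a log2 ratio of -0.60 (SE 0.17, unadjusted p = 0.00318; edgeR adjusted p = 0.300). The gene lies on chromosome 19 at 32595790 to 32667187, plus strand. Papss2, Slc25a18, Dio2, Nfib, Timp4 and Atp13a4 each kept an unadjusted p under 0.05 in all 17 alternatives, and Ndrg2 in 16 of them.

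**Figure D3:**
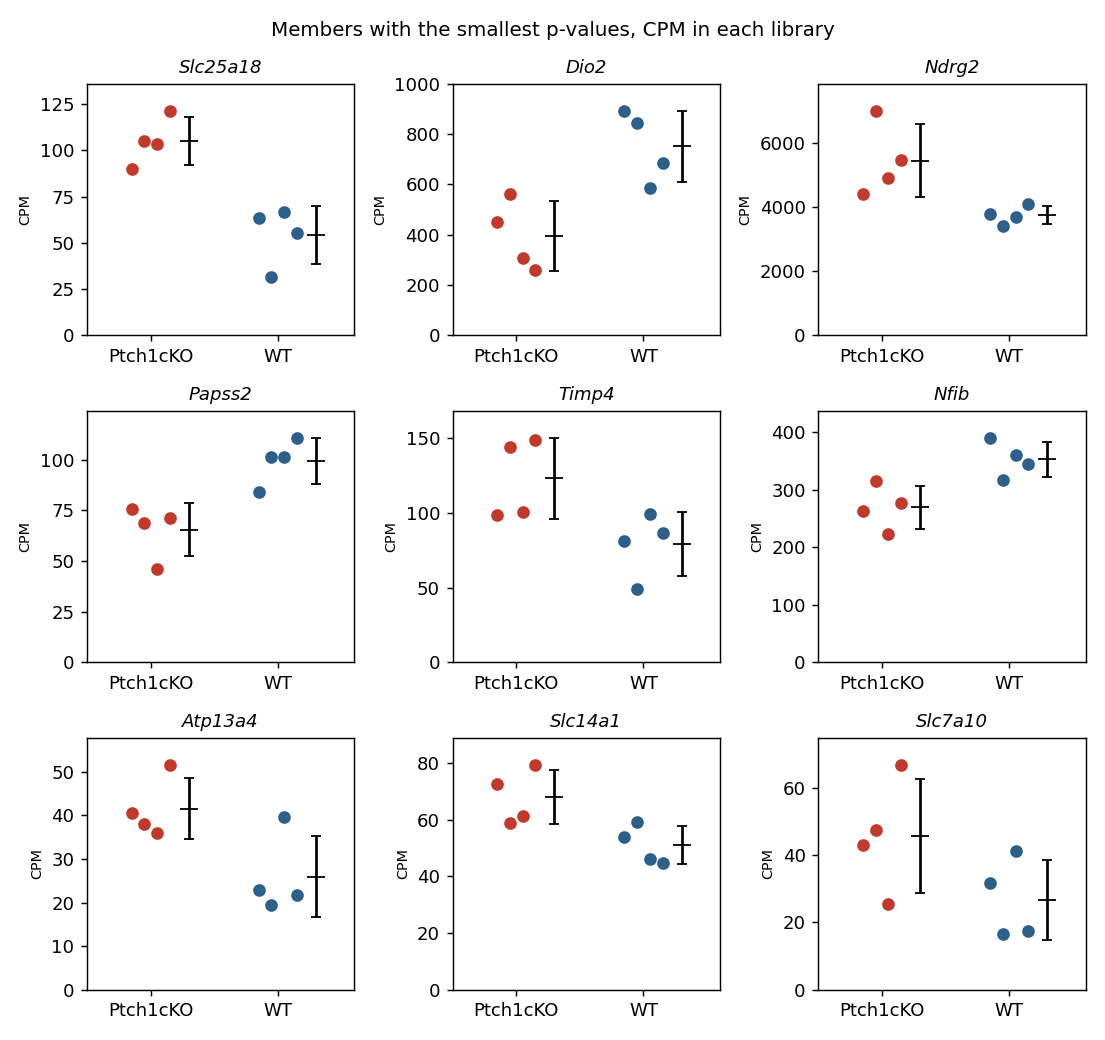
CPM in each of 4 Ptch1cKO (red) and 4 WT (blue) libraries for the 9 members with an unadjusted p under 0.05, with the mean and SD in black and each axis starting at 0. The 2 groups are separate for Slc25a18, Dio2, Ndrg2, Papss2 and Nfib, and overlap for Timp4, Atp13a4, Slc14a1 and Slc7a10.

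Aldh1l1 had 127, 169, 103 and 135 CPM in Ptch1cKO, and 132, 88.2, 163 and 124 CPM in WT. Ptch1cKO replicate 2 was the highest library and WT replicate 2 the lowest, the other libraries overlapped, and the log2 ratio was 0.07, with a 95% interval of -0.33 to 0.47. Among enzymes of amino acid metabolism, glycine decarboxylase (Gldc) had 30.1 ± 6.50 CPM in Ptch1cKO and 40.6 ± 9.53 CPM in WT, a log2 ratio of -0.43 (SE 0.21). Cystathionine beta-synthase (Cbs) averaged 60.5 CPM in Ptch1cKO and 49.2 CPM in WT, a log2 ratio of 0.30 (SE 0.19), and proline dehydrogenase (Prodh) had 24.5 ± 4.85 CPM and 24.4 ± 7.96 CPM (SD, n = 4). Of 18 other tested enzymes of glycine, serine and sulfur amino acid metabolism, 12 were positive, 6 negative and 0 passed. Groups were apart for 1 of the 18, 5.56%, where 5.02% of all genes were apart. Gcsh, the carrier protein of the glycine cleavage system to which Gldc belongs, was apart between groups at 104 ± 14.6 CPM in Ptch1cKO and 73.7 ± 6.81 CPM in WT (SD, n = 4), unadjusted p = 0.00484 and edgeR adjusted p = 0.325. Gldc and Gcsh had fold changes of opposite sign.

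Of the lipid enzymes, the fatty acyl-CoA synthetase Acsbg1 had 164 ± 31.0 CPM in Ptch1cKO and 133 ± 35.1 CPM in WT, and the platelet-activating factor hydrolase Pla2g7 had 61.7 ± 24.5 CPM and 53.4 ± 18.8 CPM (SD, n = 4). The cytochrome P450 genes Cyp4f14 and Cyp4f15, whose family hydroxylates fatty acids and eicosanoids, had log2 ratios of 0.52 (SE 0.24) and 0.66 (SE 0.42). They lie in 1 cluster of related genes on chromosome 17, and 1.63% and 2.28% of the 50-base words in their transcripts also occur in another gene, so a small part of their reads could be shared. For glycogen metabolism, the phosphatase targeting subunit Ppp1r3c had 113 ± 19.4 CPM in Ptch1cKO and 133 ± 18.4 CPM in WT, and the phosphorylase kinase subunit Phkg1 had 18.6 ± 1.44 CPM and 16.4 ± 3.14 CPM (SD, n = 4). For Phkg1, 3.07% of the 50-base words also occur in another gene. In all, 8 of the 13 metabolic members were positive and 5 negative, with 1 higher and 2 lower at an unadjusted p under 0.05 (all genes 4.8% higher, 4.54% lower and 49.6% positive). Without Ptch1cKO replicate 2, 6 of the 13 were positive.

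Membrane transporters were mostly higher in Ptch1cKO by value, with 5 of 7 positive and a median log2 ratio of 0.41, though their groups overlapped in each case. The median was 0.27 without Ptch1cKO replicate 2, and 4 of 7 were positive without Ptch1cKO replicate 1. Slc7a10, which exchanges D-serine, glycine and other small amino acids, had 42.9, 47.4, 25.3 and 66.8 CPM in Ptch1cKO, and 31.8, 16.5, 41.2 and 17.5 CPM in WT. WT replicate 3 reached into the mutant range and Ptch1cKO replicate 3 into the WT range, with a log2 ratio of 0.77 (SE 0.32, unadjusted p = 0.0304; edgeR adjusted p = 0.479). The P-type ATPase Atp13a4 had 40.6, 38.1, 35.9 and 51.6 CPM in Ptch1cKO, and 22.9, 19.5, 39.7 and 21.6 CPM in WT. Only WT replicate 3 overlapped the mutants, and the log2 ratio was 0.68 (SE 0.23, unadjusted p = 0.0105; edgeR adjusted p = 0.384). The urea transporter Slc14a1 had 72.7, 58.9, 61.2 and 79.3 CPM in Ptch1cKO, and 54.0, 59.2, 46.1 and 44.9 CPM in WT. WT replicate 2 just passed the lowest mutant, and the log2 ratio was 0.41 (SE 0.17, unadjusted p = 0.0234; edgeR adjusted p = 0.454).

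The zinc transporter Slc39a12 had 60.2 ± 28.5 CPM in Ptch1cKO and 43.3 ± 14.7 CPM in WT, and the cystine-glutamate exchanger Slc7a11 had 168 ± 53.4 CPM and 150 ± 20.4 CPM (SD, n = 4). The peptide transporter Slc15a2 averaged 101 CPM in Ptch1cKO and 124 CPM in WT, a log2 ratio of -0.30 (SE 0.20). Slco1c1, given above, was the other negative transporter. The groups of these 4 overlapped.

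Among the membrane and secreted proteins, Timp4, an inhibitor of matrix metalloproteinases, had 98.7, 144, 101 and 149 CPM in Ptch1cKO, and 81.1, 49.3, 99.5 and 86.7 CPM in WT. Only WT replicate 3 reached the mutant range, just above the lowest mutant library. The log2 ratio was 0.64 (SE 0.21, unadjusted p = 0.00835; edgeR adjusted p = 0.361). An exon of Timp4 overlaps the synapsin gene Syn2 on the opposite strand, and Syn2 had 117 CPM in Ptch1cKO and 85.5 CPM in WT on average, a log2 ratio of 0.46 (SE 0.14). Reads from the stretch they share cannot be told apart without strand. Its relative Timp3, which overlaps Syn3 in the same way, had 120 ± 30.0 CPM in Ptch1cKO and 98.0 ± 26.8 CPM in WT (SD, n = 4).

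Scg3, a secretogranin of dense-core granules, had 586, 1019, 523 and 702 CPM in Ptch1cKO, and 550, 542, 733 and 764 CPM in WT. Ptch1cKO replicate 2 alone exceeded the WT libraries, and the log2 ratio was 0.13 (SE 0.19). Ttyh1, a tweety family membrane protein, had 999 ± 253 CPM in Ptch1cKO and 830 ± 169 CPM in WT, and the tight-junction protein Cldn10 had 51.3 ± 12.6 CPM and 42.0 ± 9.81 CPM (SD, n = 4). The secreted serine protease Htra1 had 62.4 ± 25.9 CPM in Ptch1cKO and 65.7 ± 31.5 CPM in WT (SD, n = 4). Btbd17, a BTB domain protein, had 2.98, 4.69, 2.21 and 1.49 CPM in Ptch1cKO, and 5.72, 3.14, 4.47 and 2.26 CPM in WT. Its groups overlapped, and its 95% interval ran from -1.39 to 0.48.

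Over all 8 libraries, the highest and lowest level differed at least 2-fold in 28 of 41 members, from 1.41-fold for Nfia to 6.42-fold for Id3. Within a genotype the highest and lowest library differed at least 2-fold in 13 members among Ptch1cKO and in 16 among WT libraries, with median ratios of 1.68 and 1.85. The median biological coefficient of variation was 0.219 over the members and 0.254 over all genes tested. Ptch1cKO replicate 2 was the highest library for 14 members and Ptch1cKO replicate 4 for 11, whereas WT replicate 3 was highest for 8. The lowest library was WT replicate 2 for 17 members and Ptch1cKO replicate 3 for 11. The median member lay 0.33 and 0.25 above its own mean, on the log2 scale, in Ptch1cKO replicates 2 and 4, and 0.27 below it, at -0.27, in Ptch1cKO replicate 3. In WT replicates 2 and 3 it lay at -0.37 and 0.28. The summed level of the 25 other astrocyte markers, of which Slc1a2 is the largest part, was highest in Ptch1cKO replicate 2 and WT replicate 3, at 54483 and 47480 CPM. It was lowest in Ptch1cKO replicate 3 and WT replicate 2, at 26690 and 31398 CPM. Microglial markers were lower in the first pair, at 575 and 498 CPM, than in the second, at 1468 and 942 CPM. This order did not hold throughout. Ptch1cKO replicate 1 had 1118 CPM of microglial markers, above WT replicate 2, with an astrocyte marker sum of 37652 CPM. Ptch1cKO replicate 3 was also the shallowest library. The part of these differences in the members' values was not tested.

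**Figure D4:**
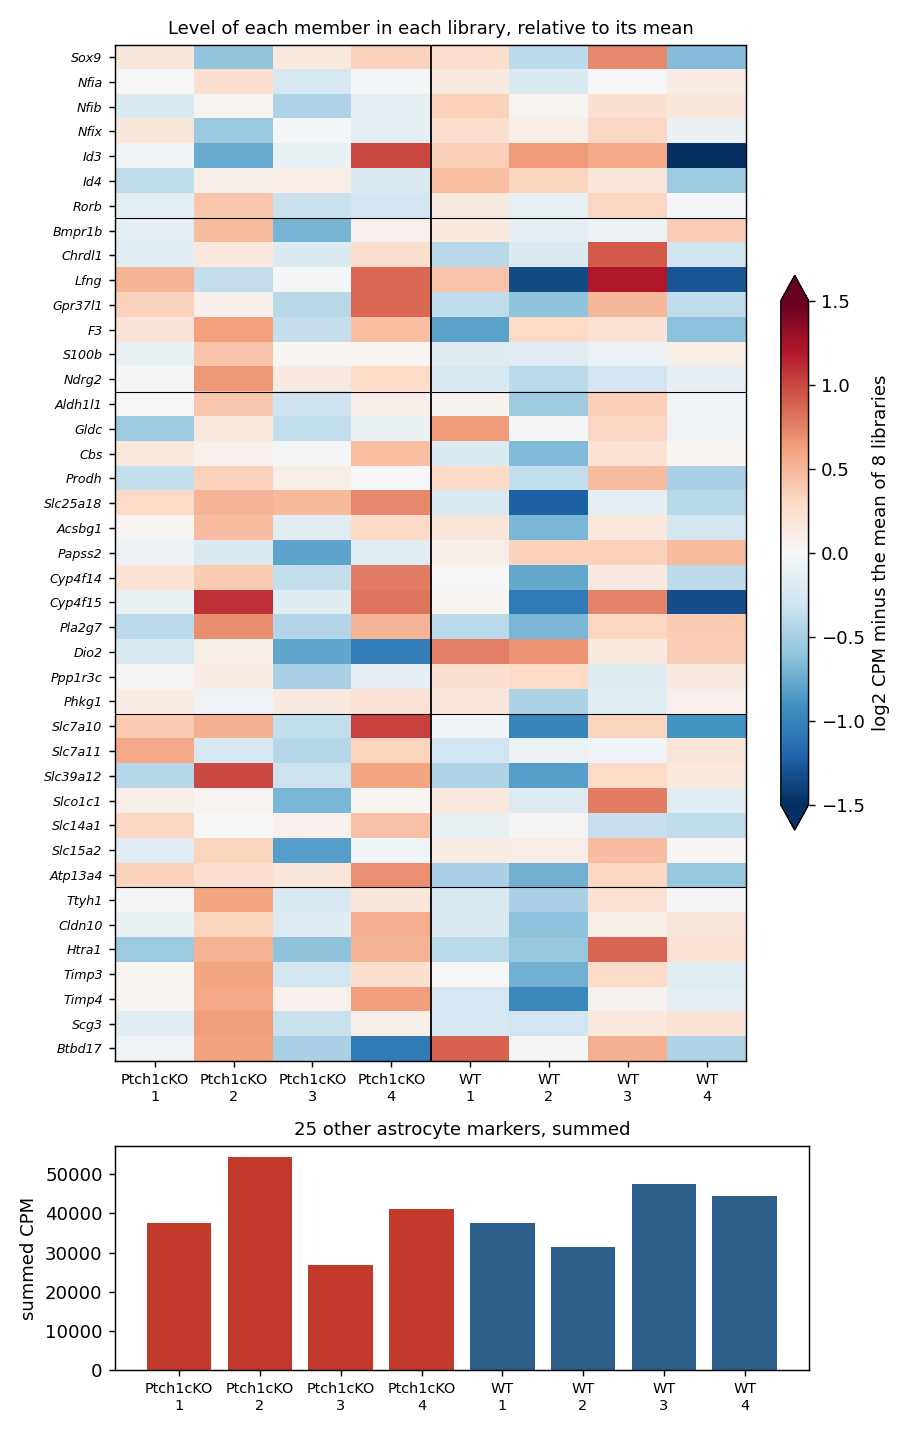
Upper panel, log2 CPM of each of the 41 members (rows, ordered by role) in each library (columns) minus its mean over 8 libraries, red above and blue below. Lower panel, summed CPM of 25 other astrocyte markers, of which Slc1a2 is the largest part, in red for Ptch1cKO and blue for WT. WT replicate 2 and Ptch1cKO replicate 3 are blue in many rows, Ptch1cKO replicate 2 and WT replicate 3 are red in many rows, and their summed markers are the 2 lowest and the 2 highest bars.

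In the 6 libraries with under 10 Xist counts, 4 Ptch1cKO and 2 WT, 0 members passed and 11 had an unadjusted p under 0.05 (7.91% of all genes). There the log2 ratios were 0.83 for Slc25a18, -0.99 for Dio2, 0.47 for Ndrg2, -0.57 for Papss2 and -0.45 for Nfib, each with its direction as in the 8 libraries. Chrdl1, an X-linked member, had 0.38 there and -0.09 in the 8 libraries.

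On lists of genes outside the members, the other astrocyte markers were positive in 20 of 25 genes, with a median log2 ratio of 0.17, and 7 had an unadjusted p under 0.05, 28% of the list, where the shares of all genes were 49.6% positive and 9.34% with such a p. Of the 7, 6 were higher and 1 lower in Ptch1cKO. Without Ptch1cKO replicate 2 there were 3 higher and 4 lower, where 9.04% of all genes had such a p in either direction. Without WT replicate 3 the median was 0.39 and 12 were higher, where 9.54% of all genes had such a p in either direction. On the log2(TPM + 1) scale 14 of 25 were positive. The smallest p was for Itih3, a heavy chain of the inter-alpha-trypsin inhibitors, with 128 ± 70.4 CPM in Ptch1cKO and 29.1 ± 11.6 CPM in WT (SD, n = 4; edgeR adjusted p = 0.117). The glutamate receptor gene Grm3 was lower, with 383 ± 126 CPM in Ptch1cKO and 625 ± 101 CPM in WT (SD, n = 4; edgeR adjusted p = 0.300). Groups were apart for 2 of the 25, 8% of the list, where 5.02% of all genes were apart. These were Itih3 and the neurotensin receptor Ntsr2, which had 178 ± 21.5 CPM in Ptch1cKO and 121 ± 32.2 CPM in WT (SD, n = 4, edgeR adjusted p = 0.337). Genes of immature astrocytes and progenitors were negative in 11 of 13 tested, with a median of -0.43, and 2 had an unadjusted p under 0.05, 15.4% of the list and 9.34% of all genes. WT replicate 1 stood apart on this list, with 731 counts of the cell-cycle gene Top2a, where Ptch1cKO libraries had 36 to 159 and the other WT libraries 210, 23 and 3. Without it the list's median was -0.17, and over the other left-out libraries it reached -0.84, without Ptch1cKO replicate 1. The genes with an unadjusted p under 0.05 were Pax6, a progenitor regulator, at 50.5 CPM in Ptch1cKO and 85.8 CPM in WT on average, and Sox11. Sox11, a factor of newborn neurons, had 12.5 ± 3.96 CPM in Ptch1cKO and 25.5 ± 16.9 CPM in WT (SD, n = 4; edgeR adjusted p = 0.442). The immature glial genes Fabp7, Vim and Nes had log2 ratios of -0.16, -0.29 and 0.02. By edgeR 0 genes of these lists had an adjusted p under 0.05.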

How the data were processed

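RNA was measured in 8 libraries of sorted tdTomato-positive cells. Per the labels' protocols, cDNA from low-input RNA was enriched with exome capture probes. Reads were demultiplexed with bcl2fastq 2.18, and STAR 2.5 and mm10 were used, per the submitters' processing notes. No source used here names the counting program, the annotation or a strand setting. Per gene symbol, the deposited counts are whole and not normalized. The deposited TPM, computed by the authors over 23585 rows, equal those counts divided by 1 length per gene: within 1.01-fold in all 7745 genes with at least 20 counts in each library.

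The tests of counts ran under edgeR 4.0.16 (R 4.3.3): filterByExpr (minimum count 10) by group, TMM scaling, and the robust quasi-likelihood test of Ptch1cKO against WT on all 10954 genes kept, with Benjamini-Hochberg adjustment over them. The fit was tested on simulated counts. The SE is the log2 fold change divided by the square root of F. Alternatives used DESeq2 1.42.0, limma 3.58.1 with log2(TPM + 1), other filters and left-out libraries. Positions are from GENCODE M21 on GRCm38, the assembly of mm10, and promoter sequences from RefSeq, GRCm38.p6. Replicate numbers were not used as pairs, since deviations of same-numbered libraries correlated at -0.17 to 0.02. Within each genotype no libraries agreed within sampling noise, and libraries of different genotypes were not compared in this way. An exon of 12 members overlaps a gene on the opposite strand.

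The members, their grouping by role and the other gene lists were chosen with earlier results of these data known. Values in every library are given for members with an unadjusted p under 0.05 or with groups that do not overlap, the 3 highest and 3 lowest by TPM, and Aldh1l1, S100b, Sox9, Nfia and Slc7a10, and Nfic, Fabp7, Vim, Nes and overlapping genes were chosen after their values were seen. From each other list at most 3 genes with the smallest p are named. The promoter motifs were chosen after the results were seen.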

Additional observations from a re-analysis of the deposited data

Results flagged for a closer look

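In groups of 4 libraries, 1 library stood far from the other 3 in 5 of 82 member-by-group sets, where chance flags about 1 in 20. Of these, 4 were high values in WT replicate 3, one of the WT libraries with Xist counts. It had 39.7 CPM of Atp13a4, against 22.9 CPM in the next WT library. Gpr37l1 was at 313 CPM there (next 171), Slc15a2 at 151 CPM (next 117) and Chrdl1 at 171 CPM (next 77.9). The remaining one was a low value of Slco1c1 in Ptch1cKO replicate 3, at 15.5 CPM, against 25.3 CPM in the next mutant library.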

How the results depend on the processing

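Over 17 alternatives, 28 of 41 members kept the sign of their fold change and 13 did not. The number of members called was 0 in the fit reported, 2 by DESeq2 (Slc25a18 and Dio2) and 5 without the count filter (these with Ndrg2, Slc7a10 and Timp4), and 0 to 1 with single libraries left out. Without the filter 16 members had an unadjusted p under 0.05 (9.79% of all genes), against 9, and 199 genes were called, against 11; DESeq2 called 76, limma 0 to 2 and left-out libraries 1 to 19, where 7 to 13 members and 6.83% to 9.54% of all genes had such a p. Groups were apart for 5 to 9 members with a library left out (7.02% to 9.22% of all genes) and for 11, against 16.7% of all genes, in the 6 libraries with under 10 Xist counts. In the authors' TPM the groups were apart for 4 members (4.46% to 6.18% of all genes). The median member fold change was 0.05 to 0.27 with a library left out. With a replicate block 5 genes and 0 members were called and the members' median was 0.12.

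Signs turned as follows, and the cause was not tested. In the 6 libraries with under 10 Xist counts, log2 fold changes were -0.018 for Phkg1, 0.38 for Chrdl1, 0.14 for Htra1, 0.48 for Id3, 0.18 for Sox9 and 0.077 for Prodh. With the replicate block they were 0.022 for Chrdl1, 0.025 for Sox9 and 0.037 for Prodh. On the TPM scale, where all genes had medians of -0.095 to -0.10, Scg3 had -0.020 and Aldh1l1 -0.033 or -0.034 in limma with log2(TPM + 1) or log2(TPM + 0.1), and Slc7a11 had -0.00088 with log2(TPM + 0.1). Nfia had 0.00092 and Prodh 0.0052 without the count filter, and Prodh 0.00080 with the stricter one. With single libraries left out, ranges were -0.022 to 0.31 for Slc7a11, -0.0014 to 0.38 for Pla2g7, -0.094 to 0.25 for Scg3, -0.30 to 0.063 for Bmpr1b, -0.067 to 0.22 for Aldh1l1, -0.23 to 0.33 for Chrdl1, -0.13 to 0.80 for Lfng, -0.25 to 0.29 for Htra1, -0.49 to 0.17 for Id3, -0.20 to 0.27 for Sox9, -0.095 to 0.067 for Nfia and -0.14 to 0.18 for Prodh.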
